A study of Mus musculus with 212 samples.

Results

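Cardiac troponin T (Tnnt2), cardiac troponin I (Tnni3) and alpha-actinin-2 (Actn2) are structural genes of the heart muscle sarcomere. They were followed through every named set of cells in a single-cell quantitative PCR study of the mouse heart lineage. The 3 genes were taken by name, with all of their assays: Tnnt2-1, Tnnt2-2, Tnni3-1, Tnni3-2 and Actn2, which are 5 of the 42 TaqMan assays and 3 of the 33 genes measured. Single cells were sorted, lysed and reverse transcribed in 1 step, pre-amplified with the assays and quantified on Fluidigm chips. The value of an assay in a cell is given as 25 minus the quantification cycle (Ct), because an assay without signal is listed at a Ct of 25. A value of 0 therefore means not detected, and 1 cycle more means about a doubling of template if amplification is efficient.

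In the muscle sarcomere, troponin T fastens the troponin complex to tropomyosin on the thin filament, and troponin I holds actin and myosin apart until calcium binds the complex. Alpha-actinin-2 crosslinks the ends of thin filaments at the Z-disc. Hearts of the mouse embryo use the slow skeletal form of troponin I (Tnni1) beside the cardiac form and replace it by the cardiac form around birth. Tnni1 is not among the genes measured here.

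The 200 cells came in 7 tables. The first held 24 cells named D5, D6, D7 and D8 (6 each), and another held 20 cells named D23 and D29 (10 each), the D numbers being days of embryonic stem cell culture as embryoid bodies. A table of 24 cells held 6 each of E7.5, E8.5, E9.5 and E10.5, and another held 72 cells of E10.5. The heart tables held 10 adult and 5 neonatal atrial cells, and 10 adult and 5 neonatal ventricular cells. The reference table held 5 cells each named CM, CPC, SMC, FB, EDC and ES, codes that the labels do not spell out. No treatment, genotype, strain or age in days is given, and every set but the reference cells is labelled cardiac.

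The sample titles of 3 tables contradict the table names. Cells of the D5-D8 table are titled as embryonic with mouse embryo as source, those of the E7.5-E10.5 table as late stem cell derivatives with embryoid body as source, and those of the D23-D29 table as early stem cell derivatives. The sets are named here by the table and by the cell names inside it, so each statement about days or stages rests on those names. The chamber labels of the hearts fit their markers: Sln, an atrial regulator of the sarcoplasmic calcium pump, was detected in 15 of 15 atrial and 0 of 15 ventricular cells. Of the 200 cells, 8 repeat a cell of another table in all 42 values (6 E10.5 cells, and CM-1 and CM-2, which recur in D29), so that 192 are distinct. The 6 negative control columns held 0 signals. In both heart tables, 40 of 42 positive control values stand 1 row lower than elsewhere. The cells of those tables were read by the row names as deposited. Of 9 genes with 2 assays, 8 in atrial and 7 in ventricular cells then had closer assays than with names moved by 1 row. The Tnnt2 assays differed by a mean of 0.395 and 0.262 cycles as named, against 12.9 and 13.8 moved. The Tnni3 assays were the exception in both tables, at 0.785 and 0.715 cycles as named and 0.383 and 0.473 moved, and Gata4 in ventricular cells, at 2.46 and 2.19. Every heart value below rests on this reading. The labels name no animal, litter or culture, and cells of 1 set may share all of these. Each set thus counts as 1 sample, and no comparison below has a replicate or a test. Values are means ± SD between cells, and a difference is called where means lie at least 1 cycle apart.

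The 3 genes lie on 3 chromosomes of the mouse genome (GRCm38.p6): Tnnt2 at chr1:135836315-135852268 on the plus strand, Tnni3 at chr7:4518305-4522718 and Actn2 at chr13:12269426-12340732, both on the minus strand. The 250 bases before a RefSeq start site of each gene are shown because the genes moved together over the sets described below. A reader can thus see which cardiac motif letters the windows share. For Tnni3 that start lies inside the gene span above, whose upstream edge is 4522718, so most of the bases shown are within the gene. The Tnnt2 bases shown run just past the start of its span, and those of Actn2 lie outside its span. Capitals mark matches, on either strand, of the motifs searched. The GATA motif was spelled GATAA. The MCAT motif, bound by TEAD factors, was spelled CATTCC. The Nkx2-5 motif was spelled TNAAGTG, with N for any base. The E-box, bound by basic helix-loop-helix factors, was spelled CANNTG and reads the same on both strands. The TATA, CArG and MEF2 motifs were searched as well.
Tnnt2, chr1:135836084-135836333, plus strand: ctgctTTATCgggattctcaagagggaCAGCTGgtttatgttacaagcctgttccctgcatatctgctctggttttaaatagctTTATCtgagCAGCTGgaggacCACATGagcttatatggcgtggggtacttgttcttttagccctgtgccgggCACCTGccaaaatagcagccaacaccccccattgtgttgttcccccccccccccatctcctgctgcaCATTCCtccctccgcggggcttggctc
Tnni3, chr7:4522529-4522778, minus strand: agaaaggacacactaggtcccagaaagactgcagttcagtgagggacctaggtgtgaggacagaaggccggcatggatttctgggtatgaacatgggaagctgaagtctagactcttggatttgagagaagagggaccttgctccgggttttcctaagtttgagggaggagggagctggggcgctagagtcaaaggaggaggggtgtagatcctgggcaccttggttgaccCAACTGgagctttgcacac
Actn2, chr13:12340733-12340982, minus strand: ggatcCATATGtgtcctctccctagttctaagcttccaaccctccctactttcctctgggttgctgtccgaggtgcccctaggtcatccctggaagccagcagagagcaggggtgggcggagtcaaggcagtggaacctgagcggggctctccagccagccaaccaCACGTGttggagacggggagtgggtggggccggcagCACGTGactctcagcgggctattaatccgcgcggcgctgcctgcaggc
Motifs were counted over the whole RefSeq window of 300 bases, which goes on for 50 bases past the start. The GATA motif occurred 2 times in the Tnnt2 window, at -245 and -166 from the start, and 2 times in the Tnni3 window, at 19 and 26 past the start and so outside the bases shown. The Actn2 window held none, and 25.4% of all 32851 mouse windows held at least 1. MCAT occurred 1 time, in the Tnnt2 window at -27, against 14.7% of all windows. The E-box occurred 5 times in Tnnt2, 1 time in Tnni3 and 3 times in Actn2, a motif held by 72.3% of windows. The Nkx2-5, TATA, CArG and MEF2 motifs matched in none of the 3 windows and occur in 11.5%, 13.6%, 1.6% and 3.2% of all. No motif other than the E-box was thus present in all 3 windows. RefSeq gives a further Tnnt2 start, whose window held 2 E-box matches and none of the others.

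In the cells named by day of culture, transcripts of Tnnt2 were met by either assay in more cells than those of Tnni3 and Actn2 until D7, and by D8 all 5 assays were detected in 6 of 6 cells. At D5, Tnnt2-1 was detected in 1 of 6 cells and Tnnt2-2 in 4 of 6, Tnni3-1 and Tnni3-2 in 2 of 6 each, and Actn2 in 1 of 6. The exact 95% interval of 4 of 6 cells is 22.3% to 95.7%, so an order among assays at a single day is not resolved by counts of this size. None of the 10 detections at D5 reached 7 cycles. The Tnnt2-1 value of cell D5-1 was 5.12 cycles, and the Actn2 value of D5-3 was 4.10 cycles. Cell D5-6 had Tnni3 by both assays, at 3.88 and 5.76 cycles, with no Tnnt2 signal, and was the 1 cell of D5 to D8 with that pattern.

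At D6, Tnnt2-1 ran between 0 and 12.40 cycles with a median of 5.40, and 5 of 6 cells detected it. Tnni3-1 was detected in 3 of 6 cells with a median of 1.58, and Tnni3-2 and Actn2 in 2 of 6 each with a median of 0. The cells of this day were spread widely. In D6-2 and D6-3 only 1 of the Tnnt2 assays gave a signal (5.25 and 4.57 cycles), while D6-6 held Tnnt2-1 at 12.40, Tnni3-2 at 11.80 and Actn2 at 9.86 cycles, each above the highest D8 cell. That single cell supplied most of the Tnni3 and Actn2 mean of the day: Actn2 averaged 2.31 ± 4.03 cycles (SD, n = 6 cells) and was 3.97 in the only other cell detecting it.

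At D7, 5 of 6 cells detected all 5 assays, with Tnnt2-1 between 10.51 and 11.72, Tnni3-1 between 8.17 and 9.70 and Actn2 between 7.15 and 9.03 cycles in them. The sixth cell, D7-1, held only Tnnt2, at 5.65 and 3.83 cycles by its assays. At D8 Tnnt2-1 ran between 9.51 and 12.38, Tnni3-1 between 6.93 and 10.53 and Actn2 between 7.52 and 9.79 cycles, so D8 cells overlapped the 5 strong D7 cells on every member assay. Actb, the only housekeeping assay, moved the other way over the same cells: its mean was 12.66, 11.57, 8.19 and 7.09 cycles at D5, D6, D7 and D8. Its part in the differences was not tested.

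**Figure D1:**
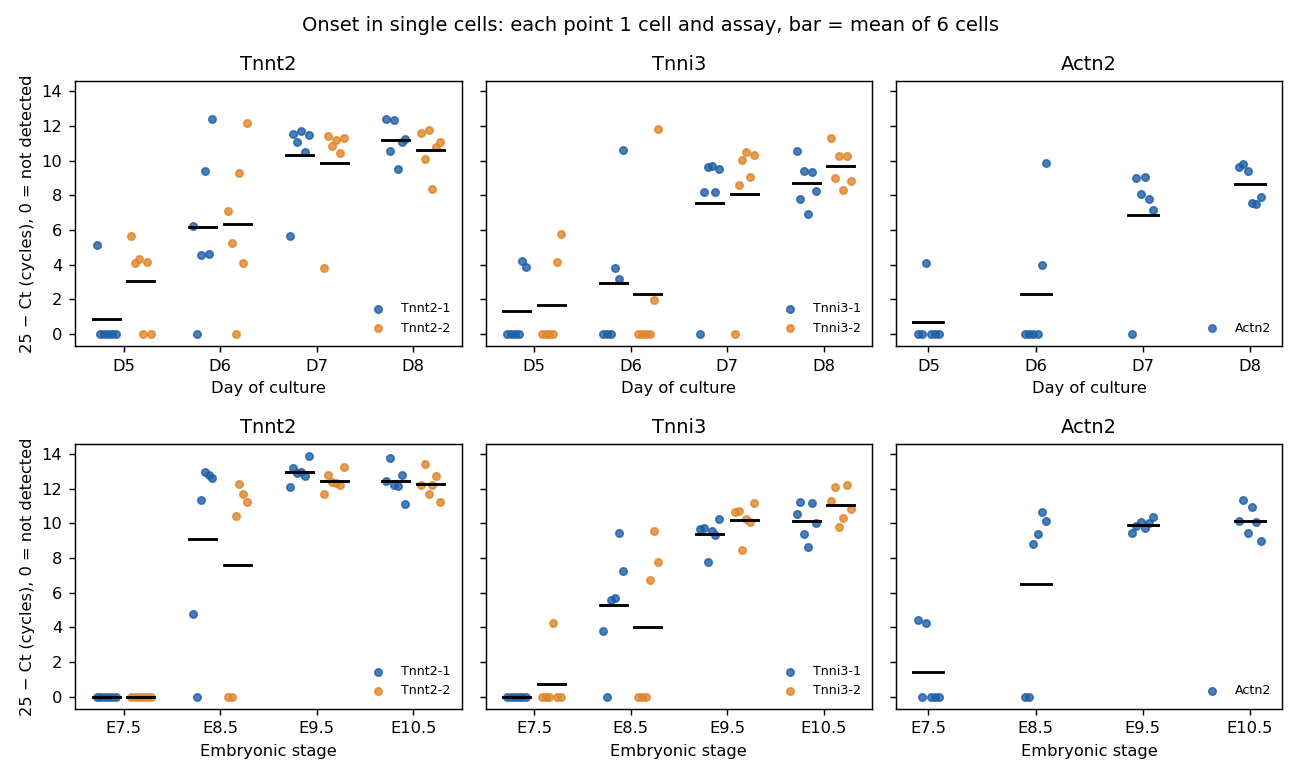
Expression of Tnnt2, Tnni3 and Actn2 in single cells, as 25 minus Ct in cycles (y axis, 0 for not detected), over D5 to D8 of culture (upper row) and E7.5 to E10.5 (lower row, 6 cells per stage). Each point is 1 cell and assay, blue for assay 1 and orange for assay 2, and the black bar is the mean of 6 cells. D5 values stay below 7 cycles, and D6-6 and D7-1 stand apart from the other cells of their day.

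From step to step, 4 of 5 member assays were at least 1 cycle higher at D6 than at D5, where 45.2% of all 42 assays were. The largest of these differences was that of Tnnt2-1, which averaged 6.19 ± 4.30 cycles at D6 and 0.85 ± 2.09 at D5, a difference of 5.34. Tnni3-2 was the assay that missed, with a difference of 0.63 cycles. The calls of Tnni3-1 and Actn2 rested on D6-6: without that cell they differed by 0.041 and 0.11 cycles and Tnni3-2 by -1.27, and the 2 Tnnt2 assays alone were called, at 4.10 and 2.12 cycles. All 5 were higher at D7 than at D6, against 35.7% of assays, by 3.52 (Tnnt2-2) to 5.79 cycles (Tnni3-2). At D8 against D7, 3 of 5 were higher, against 28.6% of assays: Actn2 by 1.79, Tnni3-2 by 1.58 and Tnni3-1 by 1.17 cycles. Those 3 calls rested on D7-1, in which Tnni3 and Actn2 were not detected: without that cell 0 of 5 assays were called, and Tnni3-1 then differed by -0.34 cycles. Over the whole interval, all 5 assays were at least 1 cycle higher at D8 than at D5, by 7.35 (Tnni3-1) to 10.32 cycles (Tnnt2-1). The cells of these days did not overlap on any of them. That was not particular to the members. The cells were also apart on both assays of Myh6, Nkx2.5 and Mef2C, higher at D8, and on Actb, Vim, Fn1, Sm22A and Pou5f1, lower at D8. For that interval 50% of all assays were called, and the median difference was 7.95 cycles over the members and 1.15 over all assays.

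The contractile genes outside the set ran with them. The 5 assays were of Myh6 and Myh7, the alpha and beta heavy chains of cardiac myosin, and Myl2, the ventricular regulatory light chain. Of these, 4 were at least 1 cycle higher at D6 than at D5 and 5 at D7 than at D6. Most of the calls at D6 rested on D6-6: without that cell 1 of 5 was called against D5, and 0 by medians over cells. At D7 against D6 the count without D6-6 was still 5. None of the 24 cells of D5 to D8 had Myh6 or Nkx2.5 without Tnnt2, and 9 had Tnnt2 without Myh6 and 9 without Nkx2.5. Nkx2.5, a homeobox factor of heart progenitors and cardiomyocytes, was detected by its first assay in 0, 2, 5 and 6 of 6 cells over the days, the same counts as Myh6-1. Hand1 and Gata4, factors of early heart mesoderm, were already detected at D5. Hand1 was met in 6 of 6 cells, and Gata4 in 5 of 6 by its second assay but in 2 of 6 by its first.

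The first day with a signal in at least 3 of 6 cells was D5 for Tnnt2-2, D6 for Tnnt2-1 and Tnni3-1, and D7 for Tnni3-2 and Actn2. The 2 assays of a gene thus differed by 1 day for both troponins. Counts within single cells do not compare days. Of the 24 cells, 7 had Tnnt2 (either assay) and no Tnni3, and 1 had the reverse. Tnnt2 was present without Actn2 in 8 cells and Actn2 without Tnnt2 in 0, while Tnni3 without Actn2 was met in 3 cells and the reverse in 1. If a gene counted only where both its assays gave a signal, Tnnt2 without Tnni3 was met in 4 cells and the reverse in 2. Actn2 has 1 assay, so that counting Tnnt2 by either assay favours Tnnt2. With both Tnnt2 assays required, Tnnt2 without Actn2 was met in 4 cells and the reverse in 1. A full set of all 3 genes was present in 0, 2, 5 and 6 of 6 cells at D5, D6, D7 and D8.

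In the cells named by embryonic stage, the 3 genes came up between the same stages, and detection by either assay gave no fixed order. At E7.5 neither Tnnt2 assay gave a signal in 6 cells, which leaves a share of up to 45.9% by the exact interval. Tnni3-2 was at 4.25 cycles in E7.5-4, without Tnni3-1, and Actn2 was at 4.42 in E7.5-1 and 4.28 in E7.5-3. At E8.5 Tnnt2-1 was detected in 5 of 6 cells (lowest 0, median 11.99, highest 12.97 cycles), Tnni3-1 in 5 of 6 (0, 5.64 and 9.42), and Actn2 in 4 of 6 (0, 9.07 and 10.64). Cell E8.5-2 detected no member, and E8.5-1 only Tnnt2-1 at 4.77 and Tnni3-1 at 3.80 cycles. The other 4 cells held Tnnt2-1 above 11 and Actn2 above 8 cycles, with Tnni3-1 between 5.59 and 9.42.

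By E9.5 the cells were alike: Tnnt2-1 averaged 12.96 ± 0.58, Tnni3-1 9.37 ± 0.85 and Actn2 9.90 ± 0.31 cycles (n = 6), with all assays detected in 6 of 6 cells. At E10.5 in the same table the means were 12.42 ± 0.86, 10.16 ± 1.03 and 10.14 ± 0.89. All 5 members were at least 1 cycle higher at E8.5 than at E7.5, against 52.4% of assays, and at E9.5 than at E8.5, against 54.8%. At E10.5 against E9.5 it was 0 of 5, against 2.38% of assays, and the differences lay between -0.54 (Tnnt2-1) and 0.86 cycles (Tnni3-2). Both Tnnt2 signs turned with the scale: the Tnnt2-1 difference was 1.64 cycles with each cell centred on Actb and 0.57 with each centred on its median detected assay, and 5 and 3 of 5 members were then called. Actb was 6.70 ± 1.06 at E10.5 and 8.87 ± 0.64 cycles at E9.5. With the 72 cells of the other E10.5 table in place of these 6, which hold cells without the genes, the differences from E9.5 lay between -2.24 and -1.52 cycles on all 5 members, so that Tnni3-1, Tnni3-2 and Actn2 changed sign. Of the contractile assays, Myl2, Myh7-2 and Myh7-1 differed by -5.63, -4.00 and -2.63 cycles between E10.5 and E9.5 in the small table, where the members moved by less than 1. These 3 assays were detected in 3, 3 and 4 of 6 cells at E10.5 and in 6 of 6 at E9.5. Over detecting cells, 0 contractile assays were lower. Sln was detected in 4 of 6 cells at E10.5 and 0 of 6 at E9.5, and a part of chamber in these differences was not tested. At E10.5 against E7.5, 5 of 5 members were called, against 57.1% of assays, by 8.69 (Actn2) to 12.42 cycles (Tnnt2-1). The cells of these stages were apart on all 5. They were also apart on both assays of Myh6, Nkx2.5 and Mef2C and on Cnn1, Hand2 and Vcam1, higher at E10.5, and on Actb, lower at E10.5.

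Counted by either assay, the pairs of genes gave no clear order in embryos. Over the 24 cells of E7.5 to E10.5, Tnnt2 without Tnni3 was met in 0 cells and the reverse in 1, Tnnt2 without Actn2 in 1 and the reverse in 2, and Tnni3 without Actn2 in 2 and the reverse in 2. All 3 genes together were present in 16 cells and none in 4. The pair counts depended on the assays required. With both assays of a troponin required, Tnni3 without Actn2 was met in 0 cells and the reverse in 3. Tnnt2 without Tnni3 was then met in 1 cell and the reverse in 0, and Tnnt2 without Actn2 in 0 and the reverse in 2. The relation to Nkx2.5 also differed from that of the culture cells: 3 embryonic cells had Nkx2.5 without Tnnt2, and 1 had Tnnt2 without Nkx2.5. Both Nkx2.5 assays were detected in 3 of 6 cells at E7.5, where Tnnt2 and Myh6 were detected in 0. Whether culture and embryo differ in order was not tested, since each has 1 set of cells per time.

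The large E10.5 table shows how the members were spread over the cells of 1 stage. Of its 72 cells, 57 detected all 5 assays, 11 detected between 1 and 4, and 4 detected none. In the 57 cells Tnnt2-1 ran between 8.27 and 14.18 cycles with a median of 12.57, and Actn2 between 4.73 and 12.21 with a median of 10.44. The 11 partial cells had Tnnt2-1 at 7.76 cycles or below, under the lowest full cell. Partial and full cells were told apart by detection of these same 5 assays. The gap on Tnnt2-1 therefore describes the grouping and is no separate evidence for distinct kinds of cells. Tnnt2 without Tnni3 was met in 6 cells and the reverse in 1, Tnnt2 without Actn2 in 7 and the reverse in 0.

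Other markers were counted in these 3 kinds of cells by detection only. Nkx2.5-1 was detected in 56 of the 57 full cells, in 0 of the 11 partial cells and in 0 of the 4 empty ones. The exception, E10.5-18, had the lowest Tnnt2-1 value of the full cells, with means of 8.11 cycles for Tnnt2 and 5.74 for Tnni3, and Actn2 at 5.79. Cdh5, the endothelial cadherin, was detected in 12 cells: 4 of 4 empty, 6 of 11 partial and 2 of 57 full. Pecam1, an endothelial adhesion molecule, was met in 4 of 4 empty, 7 of 11 partial and 1 of 57 full cells. Flk-1, a growth factor receptor of endothelium and of early mesoderm, was met in 4 empty, 3 partial and 15 full cells, and Vwf, an endothelial clotting factor, in 3, 4 and 6, so these markers were not limited to cells without the members. Endothelial markers were thus present in a set labelled cardiac. Among the 60 cells without Cdh5, Tnnt2 was present in 60, Tnni3 in 57 and Actn2 in 57. Among the 12 with Cdh5, the counts were 7, 5 and 3. Cell E10.5-8 had Cdh5 at 11.12 and Pecam1 at 8.73 cycles beside Tnnt2 at 5.53 and Tnni3 at 5.13, while E10.5-29 had Cdh5 at 6.26 beside Tnnt2 at 13.22, Tnni3 at 11.68 and Actn2 at 11.02. Whether any of these wells held more than 1 cell was not tested.

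**Figure D2:**
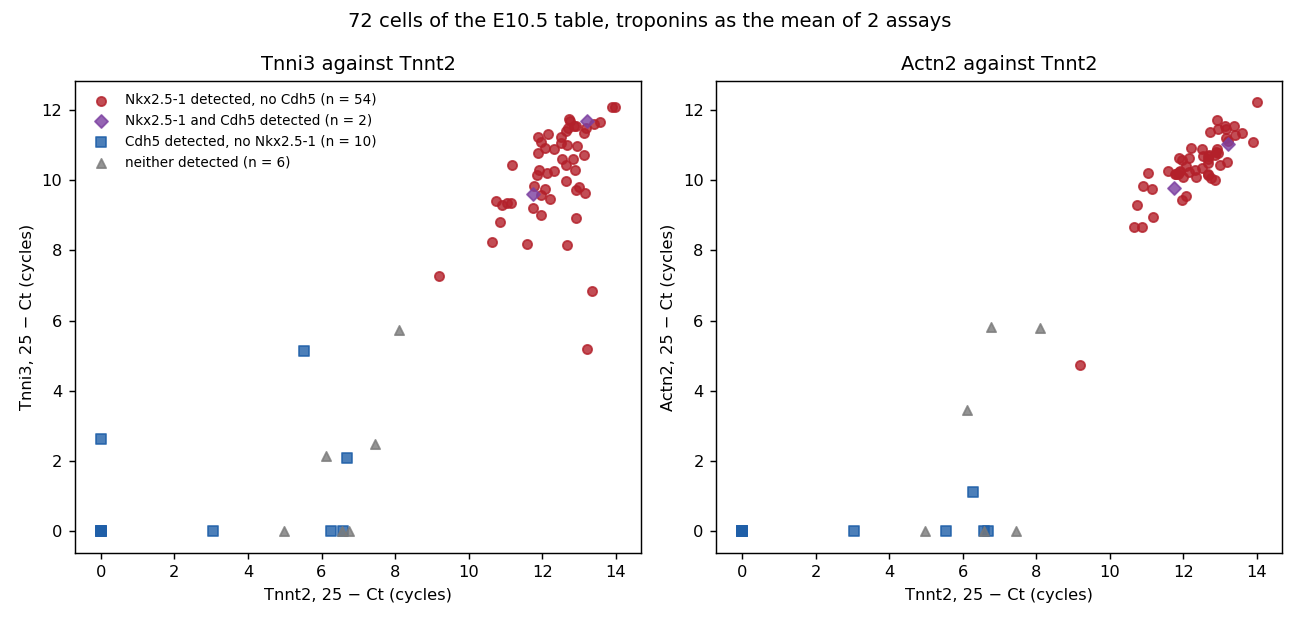
Tnni3 (left) and Actn2 (right) against Tnnt2 in the 72 cells of the E10.5 table, all as 25 minus Ct in cycles, with the troponins as the mean of 2 assays. Red circles are 54 cells with Nkx2.5-1 and no Cdh5, purple diamonds 2 cells with both, blue squares 10 cells with Cdh5 and no Nkx2.5-1, and grey triangles 6 cells with neither. Most cells with Nkx2.5-1 lie at the upper right. Of them, E10.5-24 and E10.5-51 have low Tnni3, and E10.5-11 is low on all 3 genes.

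Among the 57 full cells, the differences that involve Tnni3 had the larger spread. Tnni3 minus Tnnt2 had an SD of 1.27 cycles, Tnni3 minus Actn2 one of 1.38 and Actn2 minus Tnnt2 one of 0.56. Much of this came from a pair of cells: without E10.5-24 and E10.5-51 the SDs were 0.80, 0.98 and 0.57 over 55 cells. Cells E10.5-51 and E10.5-24 had Tnnt2 at 13.21 and 13.36 cycles and Actn2 at 11.11 and 11.54, among the higher values of the table, but Tnni3 at only 5.20 and 6.84. The Tnni3 assays in these cells were both low, so the gap is not that of 1 assay.

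In the hearts, all 5 assays were detected in 30 of 30 cells, and adult ventricular cells had the highest mean of each gene among the 21 sets. In the 10 adult ventricular cells Tnnt2-1 ran between 12.74 and 16.08 cycles (median 14.73), against 14.26, 13.32, 13.44, 12.86 and 12.31 in the 5 neonatal ventricular cells. The means were 14.51 ± 1.11 and 13.24 ± 0.72 cycles, a difference of 1.27 with overlapping cells. Tnni3-1 ran between 12.47 and 16.19 (median 13.74) in adult ventricular cells and was 12.08, 11.13, 11.04, 11.01 and 10.77 in neonatal ventricular cells. These values did not overlap, and the means of 13.88 ± 1.05 and 11.21 ± 0.50 lay 2.67 cycles apart. That was not particular to Tnni3-1, since Vcam1 parted these cells as well, in the other direction. Vcam1 was detected in 0 of 10 adult and 5 of 5 neonatal ventricular cells, a difference of -3.49 cycles. Tnni3-2 was 2.21 cycles higher and Actn2 1.89 cycles higher in adult ventricular cells, with overlap. By the 1-cycle rule 5 of 5 members were thus higher in the adult ventricle, against 31% of assays. Of the other contractile assays, 3 of 5 were higher, Myh6-1 most with 2.64 cycles. Centred on the median detected assay of each cell, only Tnni3-1 stayed above 1 cycle, at 1.40, and Tnnt2-1 was at 0.0042.

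In atrial cells Tnni3-1 and Actn2 were called higher in adults, and the other 3 member assays were not. Tnni3-1 ran between 12.25 and 14.05 cycles (median 13.13) in 10 adult atrial cells, against 11.28, 11.59, 11.99, 11.27 and 12.53 in the 5 neonatal ones. Its means were 13.05 ± 0.55 and 11.73 ± 0.53, a difference of 1.31 with overlapping cells. Tnni3-2 averaged 13.43 ± 0.87 in adult and 12.72 ± 0.45 in neonatal atrial cells, a difference of 0.72, which is under the 1-cycle rule and inside the larger SD. Tnnt2-1 averaged 13.10 ± 0.89 in adult and 13.27 ± 0.41 in neonatal atrial cells, a difference of -0.17, and Tnnt2-2 differed by 0.03, both well inside the spread between cells. Actn2 was 10.41 ± 1.03 in adult and 9.39 ± 0.33 in neonatal atrial cells, a difference of 1.02. The call of 2 of 5 members compares with 7.14% of assays. The count was 5 with cells centred on Actb, where Tnnt2-1 turned to 1.71, and 0 with cells centred on their median detected assay. Actb was 4.96 ± 1.23 in adult and 6.83 ± 2.81 in neonatal atrial cells.

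Adult atrial cells were below adult ventricular cells on all 5 member assays. The differences were -1.63 (Tnnt2-2), -1.42 (Tnnt2-1), -1.16 (Actn2), -0.998 (Tnni3-2) and -0.83 cycles (Tnni3-1), each with overlapping cells. By the 1-cycle rule 3 of 5 were lower, against 23.8% of assays, and 0 of 5 were higher, against 4.76%. Tnni3-2 lay just inside the 1-cycle limit. The count of lower members was 5 with cells centred on Actb and 4 by medians over cells. Myh6-1 and Myh6-2 differed between the chambers by -0.27 and -0.24 cycles. Myl2, by contrast, was detected in 0 of 10 adult atrial cells and averaged 13.36 cycles in adult ventricular cells.

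Set against the 72 E10.5 cells, members were higher in hearts, while the myosin assays divided with the chambers pooled. In the 10 neonatal heart cells of both chambers 5 of 5 members were higher, against 31% of assays, by 1.23 (Actn2) to 3.91 cycles (Tnni3-2). In the 20 adult heart cells 5 of 5 were higher, against 26.2%, by 2.69 (Actn2) to 5.61 cycles (Tnni3-1). Part of this lies in E10.5 cells without the genes. Over detecting cells the sign of Actn2 turned, with a difference of -0.43 cycles for neonatal hearts against E10.5. In adult hearts Myh6-1 differed from E10.5 by 6.70 cycles and Myh7-2 by -4.39, so 2 of 5 contractile assays were higher and 3 lower. The 3 lower ones, Myh7-1, Myh7-2 and Myl2, were detected in 0 of 10 adult atrial cells. In adult ventricular cells alone they averaged 5.82, 7.51 and 13.36 cycles, against 5.99, 8.15 and 9.42 in the E10.5 cells. Hearts and embryos were run in different tables, and table and stage cannot be told apart.

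The balance of the troponins within a cell does not change when all assays of the cell shift alike. It was taken as the mean of the Tnni3 assays minus the mean of the Tnnt2 assays in cells detecting all 4. Its sign does not say which transcript was more abundant, because assays can differ in efficiency, but it can be compared between sets. The balance was -4.53 ± 1.83 cycles at E8.5 (3 cells), -2.90 ± 0.91 at E9.5 (6 cells) and -1.72 ± 0.77 at E10.5 (6 cells). In the large E10.5 table it was -2.13 ± 1.28 (58 cells). In hearts it was 0.19 ± 0.29 in adult and -0.90 ± 0.30 in neonatal atrial cells, and -0.42 ± 0.54 in adult and -1.29 ± 0.22 in neonatal ventricular cells.

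The mean balance was thus higher at each stage after E8.5 in the E7.5-E10.5 table, and higher in adult than in neonatal cells of both chambers. No E7.5 cell detected all 4 assays. Cells of neighbouring stages overlapped. They lay between -6.42 and -2.76 at E8.5, -4.55 and -1.74 at E9.5, and -2.74 and -0.75 at E10.5 (6 cells). Adult atrial cells lay between -0.52 and 0.53, with 9 of 10 above 0, and neonatal atrial cells between -1.23 and -0.57, with no overlap. Adult ventricular cells lay between -1.29 and 0.30 and overlapped the neonatal ones, which lay between -1.57 and -0.96. The difference of adult from neonatal cells was 1.09 cycles in atria and 0.87 in ventricles. With the first assay of each gene alone it was 1.48 and 1.40, and with the second alone 0.69 and 0.34, so the direction held with either assay and the size did not. The positive control had a balance of -1.86 cycles in the D5-D8, E7.5-E10.5 and reference tables, where its values were identical, and -1.75 in the D23-D29 table.

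**Figure D3:**
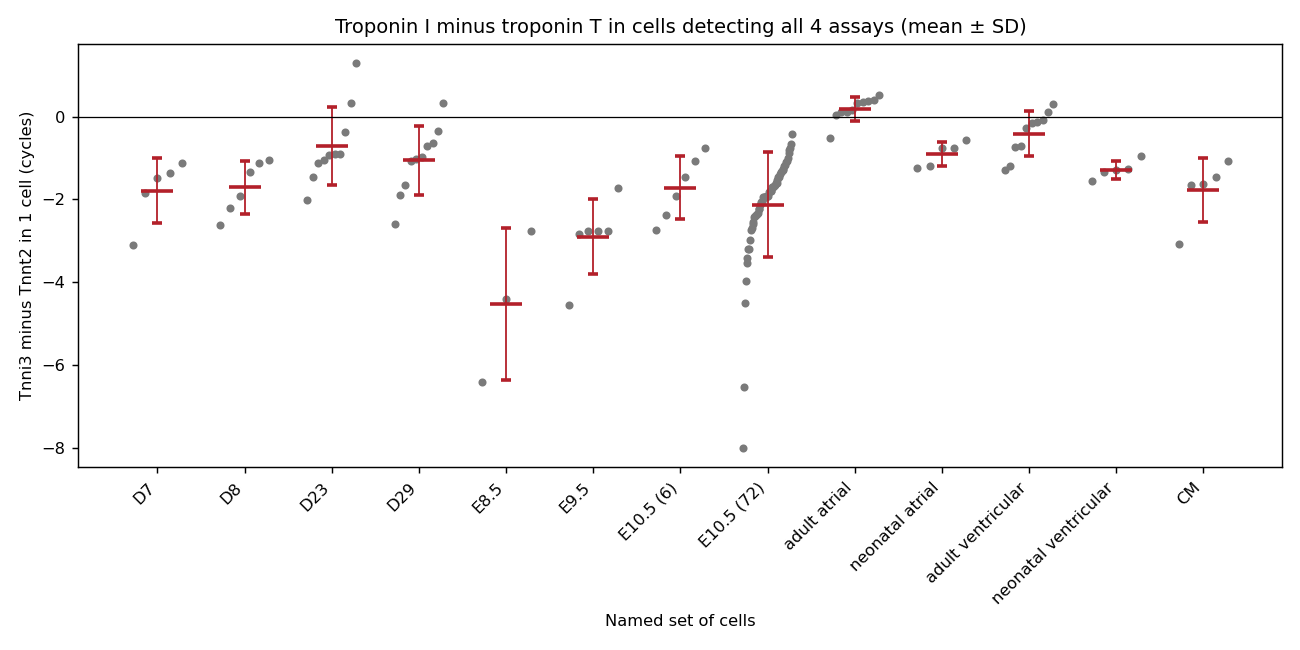
Mean of the Tnni3 assays minus mean of the Tnnt2 assays within single cells (y axis, cycles) by named set (x axis), for cells detecting all 4 assays. Grey points are cells, and the red bar and whiskers are the mean and SD. The 9 adult atrial cells above 0 stand over all neonatal atrial cells, and the E8.5 cells are the lowest in mean.

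The late culture cells held every member, at values below those of adult ventricular cells. All 5 members were detected in 20 of 20 cells of D23 and D29. Tnnt2-1 averaged 11.58 ± 0.70 at D29 and 10.19 ± 1.44 at D23, and Tnni3-2 10.60 ± 0.84 at D29 and 8.77 ± 0.65 at D23 (n = 10 each). Of the 5 members, 3 were at least 1 cycle higher at D29 than at D23, against 38.1% of assays: Tnnt2-2 by 1.87, Tnni3-2 by 1.83 and Tnnt2-1 by 1.39 cycles. Against D8, the 20 late cells differed by -0.30 to 0.02 cycles on 4 members and by 1.35 on Tnni3-1, so 1 of 5 was called, against 7.14% of assays. The positive control was itself higher in the D23-D29 table than in the D5-D8 table, by 1.48 cycles on Tnni3-1 and by 0.80 to 1.31 on the other members, so the called difference was no larger than that of the control. Centred on Actb, 5 of 5 were called, and Tnnt2-1 and Actn2, at -0.30 and -0.04 cycles as measured, turned to 1.07 and 1.32. Actb was 5.73 cycles in the late cells and 7.09 at D8. Adult ventricular cells were higher than D29 cells on 5 of 5 members, against 40.5% of assays, by 2.65 (Actn2) to 3.83 cycles (Tnni3-2). That was not particular to the members, since the other contractile assays were higher on 5 of 5 as well. Tnnt2-1 was at least 12.74 cycles in adult ventricular and at most 12.53 in D29 cells, while on Actn2 and Actb the cells overlapped.

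The Tnni3 assays disagreed at D23. Tnni3-1 minus Tnni3-2 was above 0 in 10 of 10 cells there (0.92 ± 0.35 cycles), in 2 of 10 at D29 (-0.18 ± 0.28) and in 0 of 6 at D8 (-0.96 ± 0.27). In the positive control this difference was -0.46 in the D23-D29 table and -1.09 in the D5-D8 table. The troponin balance of the late cells, -0.88 ± 0.88 against -1.71 ± 0.64 cycles at D8, depended on the assay for that reason: it was higher by 1.65 with the first assays and by 0.0062 with the second.

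Over all 192 distinct cells the paired assays gave the same answer on presence in most cells. Both Tnnt2 assays were detected in 147 cells, neither in 38, the first alone in 3 and the second alone in 4. Both Tnni3 assays were detected in 135, neither in 49, the first alone in 6 and the second alone in 2. Signals by 1 assay alone were weak, with a median of 4.57 cycles for Tnnt2 and 4.28 for Tnni3. In cells with both, the assays differed by a mean of 0.42 cycles for Tnnt2 and 0.87 for Tnni3.

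In the reference cells the members marked the CM set and were nearly absent elsewhere. Tnnt2-1 was at 12.07, 10.37, 10.86, 12.84 and 10.05 cycles in the 5 CM cells, Tnni3-1 at 10.18, 9.22, 8.70, 9.36 and 8.48, and Actn2 at 9.67, 8.86, 9.64, 8.37 and 8.08. The 5 members were called higher in CM than in the 25 other reference cells, against 38.1% of assays, and than in the 5 CPC cells, against 31%. The differences from the other reference cells were 8.60 (Actn2) to 10.94 cycles (Tnnt2-1), with no overlap. Since most other cells sit at the detection limit, these differences are lower limits. Other assays parted the CM cells as well: Myh6-1 was detected in 5 of 5 CM and 0 of 25 other cells. Actb was apart in the other direction, at most 7.28 cycles in CM and at least 7.40 in the other cells.

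No member gave a signal in the 20 CPC, FB, EDC and ES cells, which leaves a share of up to 16.8% per assay by the exact interval. The exceptions were SMC cells. Tnnt2 was at 7.41 and 7.48 cycles by its assays in SMC-5 and absent in the other 4, and Actn2 was at 4.52 in SMC-1, 2.70 in SMC-4 and 0.84 in SMC-2. Tnni3 was detected in 0 of 25 other reference cells, which leaves a share of up to 13.7%. The SMC-5 signal came from both Tnnt2 assays without Tnni3, Actn2, Myh6 or Myh7. As far as the members go, this combination was also met in D5-1, D6-1, D7-1, E10.5-26, E10.5-27 and E10.5-28. Their Tnnt2 values lay between 3.83 (D7-1) and 7.12 cycles (D6-1).

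Ranked by mean over the 21 sets, each gene ran in nearly the same order. Adult ventricular cells led for Tnnt2 (14.57 ± 1.04 cycles as the mean of its assays), Tnni3 (14.16 ± 1.03) and Actn2 (11.57 ± 1.42). For Tnnt2 the step down to the next set, neonatal atrial cells at 13.12 ± 0.41, was 1.45 cycles and exceeded the larger SD, and from there to D23 at 9.94 ± 1.22 no neighbouring sets differed by more than the larger SD of the pair. Further down, only the step between D6 (6.26 ± 3.97) and D5 (1.94 ± 1.97) did. For Tnni3 the steps from adult atrial (13.24 ± 0.63) to neonatal atrial cells (12.22 ± 0.49), and from neonatal ventricular (11.72 ± 0.64) to the 6 E10.5 cells (10.61 ± 0.97), exceeded the larger SD, and all other steps lay within it. For Actn2 every step lay within it. The 3 genes also differed in where the neonatal hearts ranked: next after the adult hearts for Tnni3, but behind E9.5 and the 6 E10.5 cells for Actn2.

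**Figure D4:**
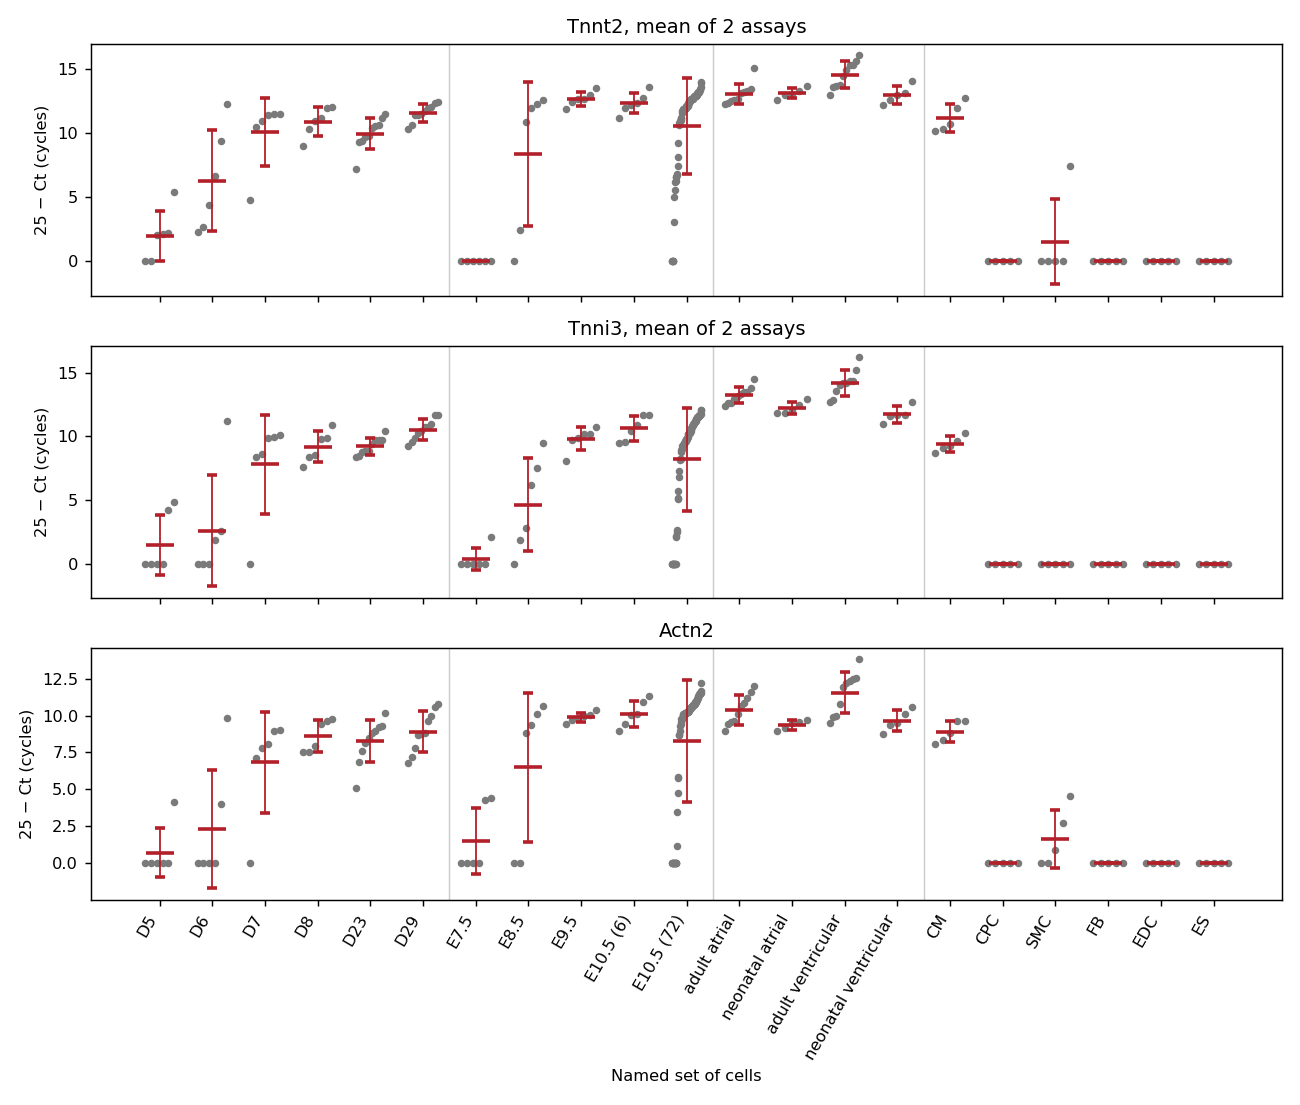
Expression of Tnnt2, Tnni3 (each as the mean of 2 assays) and Actn2, as 25 minus Ct in cycles, in every cell of the 21 named sets. Grey points are cells, red bars and whiskers are mean and SD, and vertical lines part culture days, embryonic stages, hearts and reference cells. Adult ventricular cells have the highest mean in each panel, and CPC, FB, EDC and ES cells are all at 0.

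Over the 20 sets of distinct cells, the set means of the genes had Pearson correlations of 0.984 (Tnnt2 with Actn2), 0.978 (Tnni3 with Actn2) and 0.975 (Tnnt2 with Tnni3). Of the assays of other genes, Myh6-1 and Myh6-2 were the most alike to each of the 3 genes, at 0.983 and 0.982 for Actn2, 0.993 and 0.988 for Tnni3 and 0.980 and 0.978 for Tnnt2. An Nkx2.5 assay came next in each case, at 0.966 for Actn2, 0.936 for Tnni3 and 0.952 for Tnnt2. Points of a table share a run, and sets at 0 on all of these genes weigh heavily in such values.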

How the data were processed

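Single cells were sorted, reverse transcribed, pre-amplified and measured with TaqMan assays on Fluidigm chips, per the labels' protocols. The values the authors deposited are quantification cycles (Ct) of 42 assays in 212 columns, 200 cells and 12 controls; no reference gene correction is recorded, and the sources used here give no Ct threshold or cell filter. Expression was computed as 25 minus Ct with undetected values as 0 (Python 3.11.15, pandas 2.3.3, scipy 1.17.1). The members and lists were chosen with earlier results of these data known. Named besides the members were the contractile assays, cardiac regulators, the 3 assays most like each gene, and Actb; endothelial markers, Sln and single cells were named after their values were seen.

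SDs are between cells, and the exact (Clopper-Pearson) 95% intervals cover counting error only. Depth is limited by 5 to 72 cells per set and by the Ct limit. As no animal or culture is named, no test between sets was run; Dixon's gap criterion only marks single cells. Sets pooled for a comparison were D23 with D29 and the chambers of a heart age. Alternatives were values centred on each cell's Actb or its median detected assay (undetected values take the lowest centred value), a Ct limit of 23, detecting cells only (at least 3), medians over cells, a cell filter (Actb undetected, or detected assays more than 3 scaled median absolute deviations under the median of the table), and single assays. Leaving out D6-6 or D7-1, and recounting lower members, were added after seeing the data. The step that computes differences was checked on simulated cells. Promoter windows and gene positions are RefSeq's for GRCm38.p6, and all 3 genes matched by symbol.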

Additional observations from a re-analysis of the deposited data

Results flagged for a closer look

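Among the 75 combinations of a member assay and a set of 5 to 10 cells that were checked, 16 held 1 cell far from the others of its set by Dixon's gap criterion. Chance meets it in about 1 in 20 groups of normally spread values, a rate that does not hold for values tied at 0. In 5 of the 16, all other cells of the set were at 0, so that a lone signal meets the criterion by construction. Another 5 of the 16 come from the culture cell D7-1, which was low among cells that detected the assays. It had Tnnt2-1 at 5.65 and Tnnt2-2 at 3.83 cycles, and Tnni3-1, Tnni3-2 and Actn2 at 0, 0 and 0. In the opposite direction, D6-6 had Tnni3-1 at 10.61 and Tnni3-2 at 11.80 cycles.

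At D5, Tnnt2-1 was at 5.12 cycles in D5-1 and Actn2 at 4.10 in D5-3, each the only signal of its assay that day. Tnni3-2 was at 4.25 cycles in E7.5-4, again a lone signal, and Tnnt2 was at 7.41 and 7.48 cycles by its assays in SMC-5. In sets where all cells detected the assay, D23-9 was low on Tnnt2-1 at 6.61 cycles and E9.5-3 low on Tnni3-1 at 7.74, while Adult-atrial-7 was high on Tnnt2-1 at 15.14 and Neo-ventricular-1 high on Tnni3-1 at 12.08 cycles. Adult-atrial-7 was also the highest adult atrial cell on Tnnt2-2, both Tnni3 assays and Actn2.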

How the results depend on the processing

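Of 536 recomputed member differences, 29 had the opposite sign, 7 of them where the difference as reported was at least 1 cycle and 22 where it was smaller. Of 125 recounts of members called, 109 stayed within 1.5 times. Centred on Actb, which shifts the median assay by -0.13 to 3.36 cycles, 5 members were higher at D8 than at D7, at E10.5 than at E9.5, in D23-D29 than in D8 and in adult than in neonatal atrial cells, and 5 were lower in adult atrial than in adult ventricular cells. Centred on the median detected assay (shifts of -0.95 to 0.60), the counts were 3 for E10.5 against E9.5, 0 for adult against neonatal atrial and 1 for ventricular cells. At D8 against D7, detecting cells, medians over cells and leaving out D7-1 gave 0 each: Tnni3-1 turned to -0.34 over detecting cells and without D7-1, and to -0.067 by medians, and Tnni3-2 to -0.037 over detecting cells and without D7-1. Without D6-6, 2 members were higher and 1 lower at D6 than at D5. With the 72 cells, 5 were lower at E10.5 than at E9.5. Medians gave 3 for E9.5 against E8.5 and 3 for neonatal heart against E10.5, where Actn2 turned to -0.43 over detecting cells and -0.69 by medians.

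Counts of cells with 1 gene of a pair moved with the assays required. In D5-D8, Tnnt2 without Tnni3 was met in 4 cells with both assays or assay 1 alone, and the reverse in 2; Tnnt2 without Actn2 in 4 with both and 5 with assay 1, and the reverse in 1. In E7.5-E10.5, Tnnt2 without Tnni3, its reverse, Tnnt2 without Actn2 and Tnni3 without Actn2 were met in 0 or 1 cells under the alternatives that moved them, while Actn2 without Tnnt2 was met in 2 under each, and in the E10.5 table Tnni3 without Tnnt2 was 0 with both assays or assay 2, Tnni3 without Actn2 1, and Actn2 without Tnni3 1 at a Ct limit of 23. The troponin balance of adult against neonatal cells was 1.48 (assay 1) and 0.69 (assay 2) in atria and 1.40 and 0.34 in ventricles, and of D23 and D29 against D8 1.65 and 0.0062. Causes were not tested. Onset days were the same at a Ct limit of 23 and with the cell filter. Keeping repeated cells could change no comparison, since none holds both copies. No pairing of cells between sets was possible, because the labels name no animal, litter or culture.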
